A study of Mus musculus with 12 samples.

Results

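The genes that encode the subunits of the mitochondrial respiratory chain and the ATP synthase were followed in GFP+ neural stem cells (NSCs) sorted from the subventricular zone (SVZ) of the adult mouse brain. The members were chosen by gene symbol (Nduf with a, b, c, s or v and a digit, Sdh, Uqcr, Cox4 to Cox8, Atp5, and the mitochondrially encoded mt-Nd, mt-Co, mt-Cytb and mt-Atp genes), and pseudogene symbols were left out. This gave 97 genes of the 37991 in the count sheet, and 95 of them were among the 17623 genes with enough counts to be tested. By complex the 97 comprised 44 genes of complex I, 4 of complex II, 9 of complex III, 21 of complex IV and 19 of complex V, of which 84 lie in the nuclear and 13 in the mitochondrial genome. Ndufa4 was counted under complex I by its symbol, although the protein is now regarded as a subunit of complex IV.

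All mice were C57BL/6 and carried CreERT2 knocked into the Gli1 locus together with the Cre-dependent GFP reporter RCE. Gli1Het mice (Gli1CreERT2/+;RCE) kept 1 intact copy of Gli1, and Gli1Null mice (Gli1CreERT2/CreERT2;RCE) had none in any tissue. Mice of every group, labelled as 10 weeks old, received 4 injections of 5 mg tamoxifen on alternate days, which marks Gli1-lineage cells with GFP. They then received either normal chow (control diet) or chow with 0.2% cuprizone for 3 weeks. Each of the 4 groups held 3 libraries, and each library pooled the SVZ of 2 mice, a male and a female, so the p-values describe the spread between such pools. The cells were defined by a Cre allele that is itself the Gli1 mutation, and the 2 genotypes therefore differ in the number of Cre copies as well as of Gli1 copies.

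The respiratory chain passes electrons from NADH (through complex I) and succinate (through complex II) to ubiquinone, complex III and cytochrome c, and finally to oxygen at complex IV. The protons pumped on the way drive the ATP synthase, complex V. Complex II is encoded wholly in the nucleus, while the others are mosaics of nuclear subunits and a small set of hydrophobic subunits made from mitochondrial DNA, which is transcribed as long polycistronic RNAs from both strands and then cut into single mRNAs. Complex IV carries copper in its catalytic subunits mt-Co1 and mt-Co2, and cuprizone is a copper chelator that is toxic to mature oligodendrocytes and used to demyelinate the corpus callosum.

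Counts in genes ranged from 13752801 to 32468063 per library, and between 1.38% and 1.94% of them fell on the members. The 13 mitochondrially encoded genes together took 0.586% to 1.08% of the counts. Gli1 itself measured 8.65, 18.1 and 17.4 CPM (counts scaled to library size) in the Gli1Het control libraries and between 0.294 and 0.760 CPM in the 6 Gli1Null libraries. On cuprizone the Gli1Het libraries measured 21.1, 0.819 and 3.80 CPM, so the library labelled Gli1Het cuprizone replicate 2 lay close to the Gli1Null level, and counts and medians that rest on it are also given without it. All 12 NSC markers listed (among them Sox2, Nes and Slc1a3) were detected, with a summed level of 3991 to 6244 CPM in the Gli1Het control libraries. The 14 neuroblast markers summed to 6370 to 8840 CPM in the same libraries, so RNA of neuroblasts was present beside that of NSCs. In these libraries 8 astrocyte markers summed to 2382 to 4214 CPM, and 10 oligodendrocyte lineage markers to 409 to 1214 CPM.

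On cuprizone, most respiratory chain genes did not pass the test of the diets, and the members that did included catalytic subunits of complex I, 1 rare isoform of complex IV and single genes of the mitochondrial genome. In Gli1Het NSCs 10 of the 95 tested members (10.5%) differed between the diets by edgeR's quasi-likelihood test at a Benjamini-Hochberg adjusted p under 0.05, against 34% of all genes tested. The 8 that rose were Ndufb5, Ndufs7, Ndufs8, Ndufv1, Ndufv2, Uqcrq, Cox6a2 and mt-Nd6, against a background of 18.8% of all genes rising. The 2 that fell were mt-Nd1 and Atp5f1, against 15.3% of all genes falling. The median log2 fold change over the members was 0.15, beside 0.02 over all genes tested. Without the library labelled Gli1Het cuprizone replicate 2 the count was 7, where 27.0% of all genes were called, with Ndufs7, Ndufs8, Ndufv1 and Cox6a2 higher and mt-Nd1, Uqcrb and Atp5f1 lower, and the median over the members was -0.01. Without the 4 libraries whose labels carry a number under 10 (replicates 2 and 3 of both Gli1Het groups), which left 1 Gli1Het library per diet, 5 members were called and all 5 were lower on cuprizone. In that fit the spread came from the Gli1Null groups alone, and the lone Gli1Het libraries were assumed to vary like them.

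In Gli1Null NSCs none of the 95 members passed the same test, against 3.62% of all genes. Without the library labelled Gli1Het cuprizone replicate 2, whose spread also enters this test, 3 members were called, against 10.5% of all genes. Of these 1 was higher and 2 were lower on cuprizone. With all 12 libraries there were 7 members with an unadjusted p under 0.05 in edgeR, beside 3188 of all 17623 genes tested. DESeq2 called 0 members, beside 1322 genes in all. The 3 smallest adjusted p belonged to Cox6a2 (0.0527), Atp5f1 (0.164) and mt-Nd1 (0.176), and each of these 3 genes was also called in Gli1Het NSCs. The 3 control and 3 cuprizone libraries did not overlap for 15 members (15.8%) in Gli1Het NSCs, where 41.9% of all genes did not overlap, and for 14 members (14.7%) in Gli1Null NSCs, where the figure for all genes was 41.4%. For 7 members (7.37%) the diets were apart in the same direction in both genotypes, beside 25.6% of all genes. These were Ndufb5, Ndufv1, Ndufv3 and Cox6a2, higher on cuprizone, and Ndufs4, mt-Nd1 and Atp5f1, lower on cuprizone.

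Since Gli1Het and Gli1Null NSCs share no library, the mean of their 2 diet effects was also tested in the same fit, a comparison chosen after the data were seen. It called 14 of the 95 members (14.7%), against 36.8% of all genes. The 10 members that rose were Ndufb5, Ndufs7, Ndufs8, Ndufv1, Ndufv3, Uqcrq, Cox6a2, Atp5s, mt-Nd5 and mt-Co1 (20.5% of all genes rose), and the 4 that fell were Ndufb2, Ndufs4, Atp5f1 and mt-Nd1 (16.3% of all genes fell). Over 19 alternative settings Cox6a2, Atp5f1 and mt-Nd1 were called in all 19, and Ndufs7, Ndufs8 and Ndufv1 in 18. The other 8 genes were called in 7 to 17 of them. These settings refit the same libraries, or most of them, and are not independent of each other. Cox6a2 passed the count filter only through cuprizone libraries, so its calls are not independent of that filter.

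**Figure D1:**
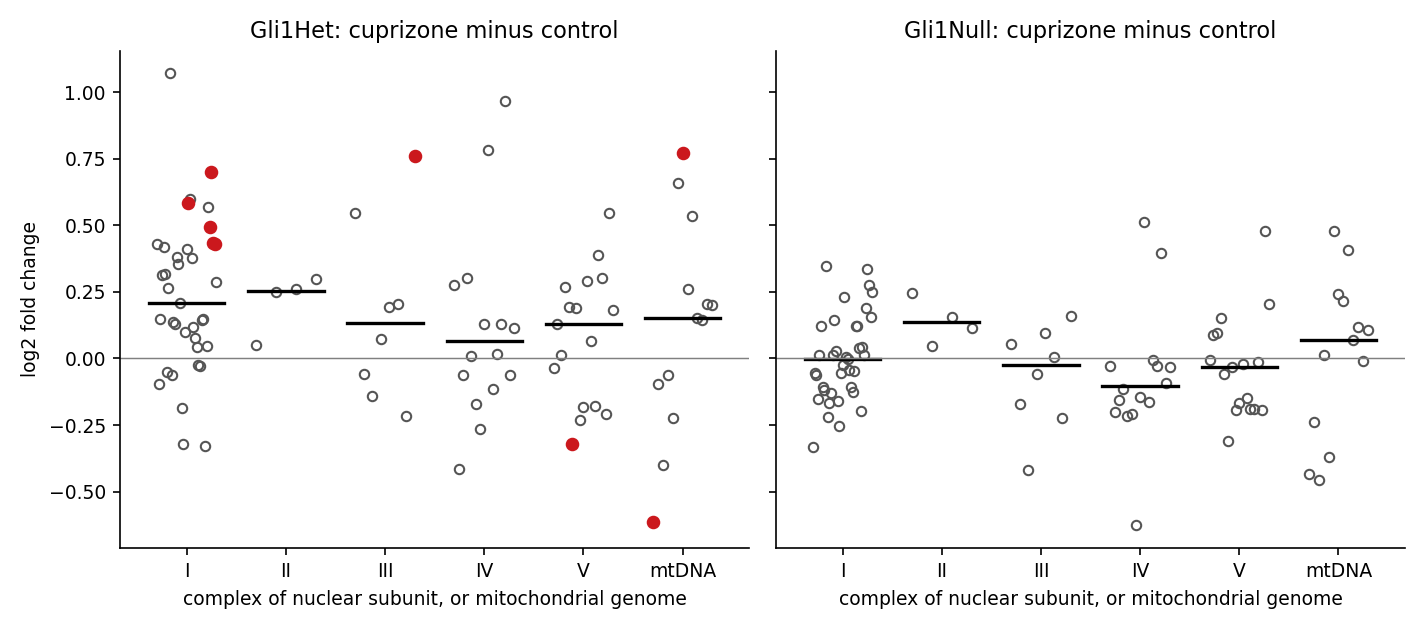
Log2 fold change on cuprizone (vertical axis) of each tested member in Gli1Het (left) and Gli1Null NSCs (right), grouped along the horizontal axis by the complex of the nuclear subunits, with the 13 mitochondrially encoded genes last. Filled red points passed the test at an adjusted p under 0.05, open points did not, and bars are class medians. Cox6a2 (log2 fold change 7.03 in Gli1Het and 4.08 in Gli1Null NSCs) lies off the scale and is not drawn. Medians lie between 0.06 and 0.25 in Gli1Het and between -0.10 and 0.14 in Gli1Null NSCs, and no point is filled on the right.

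The nuclear members varied between libraries of 1 group by as much as between the diets. Expressed as the median log2 deviation from the mean of the 6 control libraries, the 82 tested nuclear members stood at 0.17, -0.07 and -0.18 in the 3 Gli1Het control libraries and at 0.23, -0.10 and -0.05 in the 3 Gli1Null control libraries. They stood at -0.08, 0.38 and 0.09 in the Gli1Het cuprizone libraries and at -0.03, -0.02 and 0.06 in the Gli1Null cuprizone libraries. The spread among the control libraries was thus wider than the median Gli1Het change of 0.15 over the members. The library labelled Gli1Het cuprizone replicate 2 had the highest level of all 12 libraries for 49 of the 82 nuclear members (59.8%) but for only 1 of the 13 mitochondrially encoded genes. Over all genes tested it was highest for 27.7%. The mitochondrially encoded genes followed another order, with medians of 0.58 in Gli1Null cuprizone replicate 1 and 0.47 in Gli1Null control replicate 2.

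**Figure D2:**
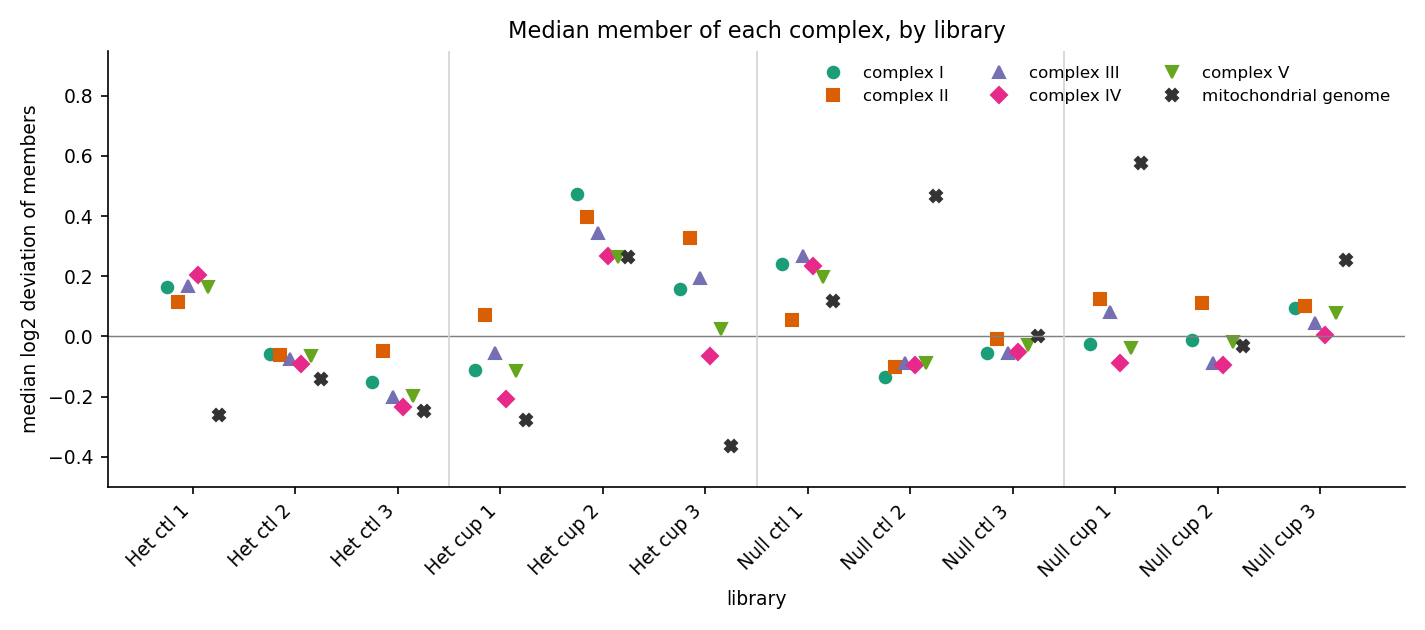
Median log2 deviation (vertical axis, from the mean of the 6 control libraries) of the members of each complex in each of the 12 libraries (horizontal axis; Het and Null, genotype; ctl and cup, diet). The coloured markers of complexes I to V lie close together in most libraries, with the library labelled Gli1Het cuprizone replicate 2 the highest (0.38 over all nuclear members), whereas the black crosses of the mitochondrial genome take other positions, up to 0.58.

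Summed over genes, the nuclear members measured 10788, 9218 and 8578 CPM in the Gli1Het control libraries and 9263, 11398 and 10433 CPM on cuprizone. In Gli1Null NSCs they measured 11028, 9208 and 9395 CPM on the control diet and 9832, 9604 and 10192 CPM on cuprizone, so that the diets overlapped in both genotypes. The mitochondrially encoded genes summed to 5098 ± 226 CPM (SD, n = 3) in the Gli1Het control group, 6025 ± 1395 in the Gli1Het cuprizone group, 6770 ± 1183 in the Gli1Null control group and 7612 ± 1726 in the Gli1Null cuprizone group. Their ratio to the nuclear sum was 0.540 ± 0.0655 and 0.577 ± 0.0772 in Gli1Het NSCs on the control and cuprizone diets. In Gli1Null NSCs it was 0.692 ± 0.159 and 0.771 ± 0.175. The 3 libraries of a group measured 0.464, 0.581 and 0.575 in Gli1Het control, 0.530, 0.666 and 0.534 in Gli1Het cuprizone, 0.589, 0.876 and 0.612 in Gli1Null control and 0.971, 0.650 and 0.691 in Gli1Null cuprizone NSCs. The diets overlapped within each genotype, while on the control diet all Gli1Het libraries lay below all Gli1Null libraries, a difference that was not tested. In pooled RNA a smaller share of cells of one type cannot be told apart from less RNA per cell.

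Complex I is the NADH dehydrogenase. Of its 37 nuclear subunits 5 (13.5%) rose and 0 fell in Gli1Het NSCs, beside 18.8% and 15.3% of all genes, with a median log2 fold change of 0.21. The 5 were Ndufb5 and the catalytic subunits Ndufs7, Ndufs8, Ndufv1 and Ndufv2. In Gli1Null NSCs none of the 37 was called, and the median was -0.00.

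Ndufs8, a carrier of iron-sulfur clusters near the ubiquinone site, measured 53.7, 54.3 and 46.9 CPM in the Gli1Het control libraries and 68.9, 96.5 and 86.2 CPM on cuprizone. All cuprizone libraries lay above all control libraries, with a log2 fold change of 0.70 ± 0.16 (SE, adjusted p = 0.00800). In Gli1Null NSCs it measured 62.4, 43.7 and 51.4 CPM on the control diet and 68.4, 60.1 and 70.2 CPM on cuprizone, where 1 library fell within the control range (log2 fold change 0.34, adjusted p = 0.283). Averaged over the genotypes the change was 0.52 ± 0.11 (adjusted p = 0.00500).

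Ndufs7, which holds the last iron-sulfur cluster before ubiquinone, measured 97.6, 95.4 and 85.8 CPM in the Gli1Het control libraries and 111, 138 and 143 CPM on cuprizone. It rose by 0.49 ± 0.13 on the log2 scale (adjusted p = 0.0155) with no overlap. The Gli1Null values were 110, 85.4 and 90.1 CPM against 109, 106 and 111 CPM, so the diets overlapped there (adjusted p = 0.475).

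Ndufv1, the flavin-bearing subunit that oxidises NADH, was apart between the diets in both genotypes. It measured 176, 159 and 153 CPM in the Gli1Het control libraries and 196, 234 and 230 CPM on cuprizone (log2 fold change 0.43 ± 0.11, adjusted p = 0.0145). In Gli1Null NSCs it measured 162, 141 and 153 CPM and then 182, 195 and 176 CPM (log2 fold change 0.28 ± 0.11, adjusted p = 0.213). The averaged change was 0.35 ± 0.08 (adjusted p = 0.00616). Without the library labelled Gli1Het cuprizone replicate 2 the Gli1Het changes of Ndufs8, Ndufs7 and Ndufv1 were 0.59, 0.45 and 0.38, with adjusted p of 0.0162, 0.0268 and 0.0234. The Gli1Het calls of Ndufs7 and Ndufv1 were each lost without Gli1Het control replicate 2 (adjusted p = 0.0507 and 0.0621), Gli1Het control replicate 3 (0.0583 and 0.0548) or Gli1Het cuprizone replicate 3 (0.0611 and 0.0520). Over 20 alternative settings Ndufs7 and Ndufv1 were called in 15 each and Ndufs8 in 18. Without the 4 libraries with a label number under 10 the averaged changes of Ndufs8, Ndufs7 and Ndufv1 no longer passed the test (adjusted p = 0.0689, 0.191 and 0.0707).

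Ndufv2, the partner of Ndufv1 in the NADH-binding module, and Ndufb5, a subunit of the membrane arm, depended more on that library. Ndufv2 measured 145, 134 and 132 CPM and then 145, 229 and 179 CPM in Gli1Het NSCs (log2 fold change 0.43 ± 0.15, adjusted p = 0.0463), and Ndufb5 measured 66.6, 59.8 and 53.5 CPM and then 68.0, 124 and 77.0 CPM (0.58 ± 0.19, adjusted p = 0.0374). Neither was called without it. Ndufs1, the largest iron-sulfur subunit, measured 143, 148 and 142 CPM against 126, 146 and 154 CPM (log2 fold change -0.03, adjusted p = 0.849). The values of Ndufs1 on the 2 diets overlapped.

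Some subunits of complex I were lower on cuprizone. Ndufs4, an accessory subunit and a gene of inherited complex I deficiency, measured 90.8, 69.5 and 68.0 CPM in the Gli1Het control libraries. It measured 59.2 to 61.3 CPM in the 3 Gli1Het libraries on cuprizone. In Gli1Null NSCs it measured 86.5, 76.4 and 74.0 CPM against 66.5, 68.6 and 71.6 CPM. The diets did not overlap in either genotype. It was not called in either alone (adjusted p = 0.0564 and 0.431), and the averaged change was -0.26 ± 0.09 (adjusted p = 0.0339). Ndufb2, of the membrane arm, averaged -0.29 ± 0.10 (adjusted p = 0.0492). The exons of Ndufb2 and Ndufb5 overlap those of genes on the opposite strand (Braf and Mrpl47), and the library kit keeps no strand, so reads in the overlap cannot be told apart.

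**Figure D3:**
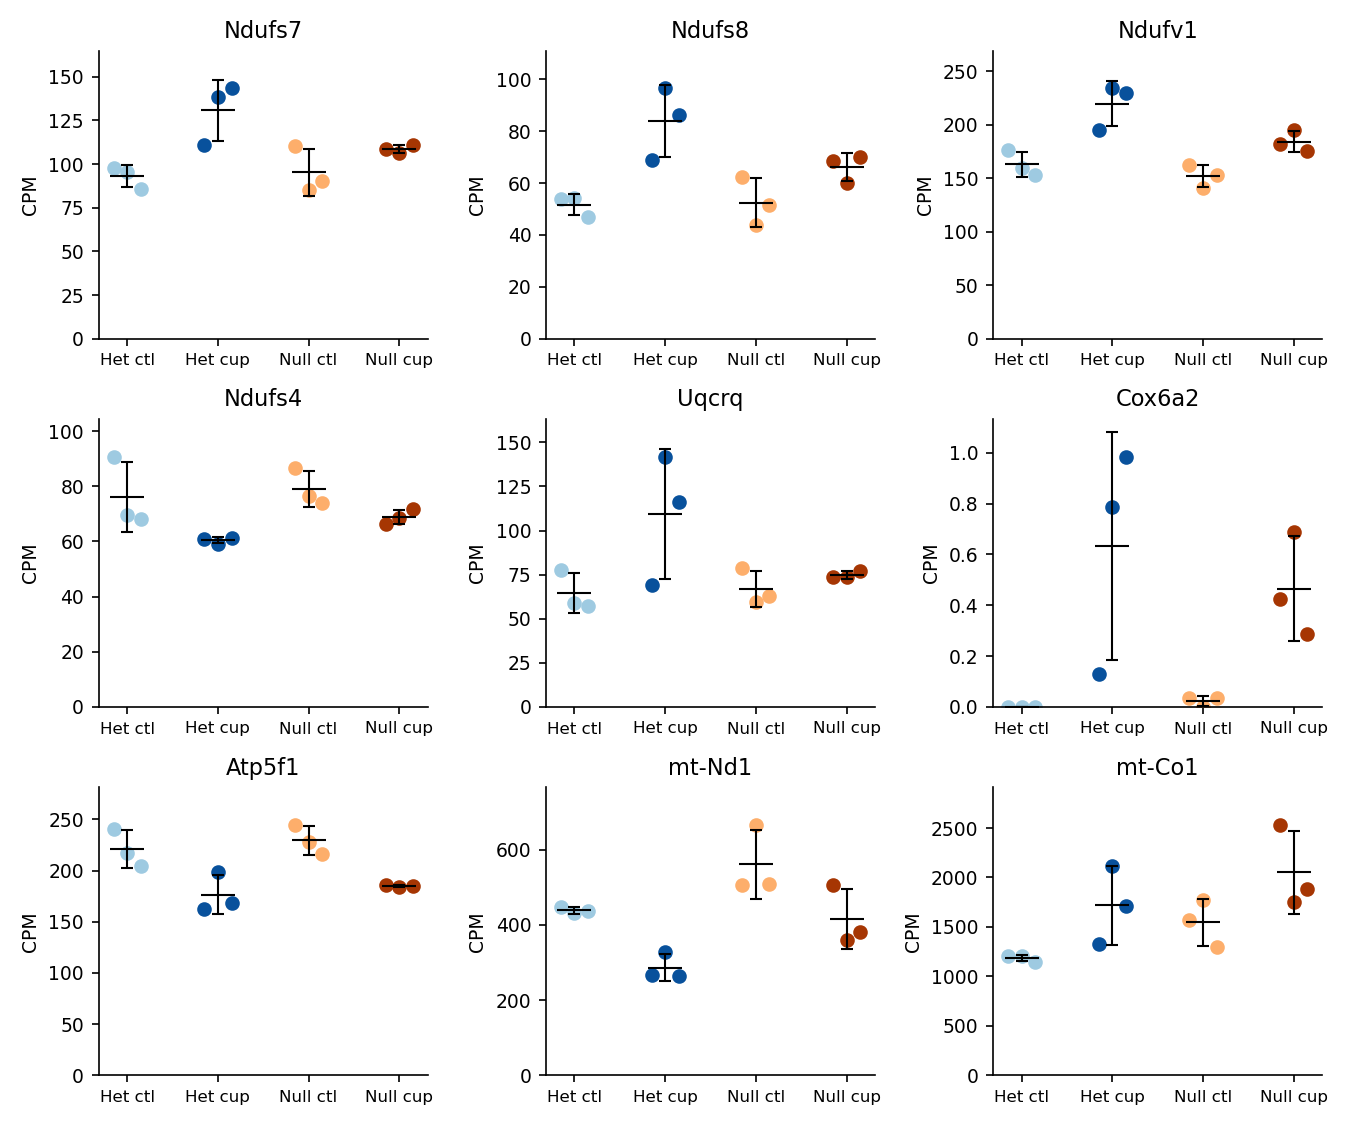
CPM (vertical axes, from 0) of 9 members in the 3 libraries of each group, in replicate order from left to right within a group, with the mean and SD as black bars. Ndufs7, Ndufs8 and Ndufv1 are higher in all 3 Gli1Het cuprizone libraries than in the Gli1Het control libraries, Ndufs4, Atp5f1 and mt-Nd1 are lower on cuprizone in both genotypes, and Cox6a2 is near 0 in all 6 control libraries.

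Ndufs8 (chromosome 19, 3908863 to 3912774, minus strand) and Ndufv1 (chromosome 19, 4007384 to 4012806, minus strand) lie close together, and Ndufs7 lies on chromosome 10 (80249121 to 80256794, plus strand), all in GENCODE M21 coordinates of mm10. Their RefSeq promoter windows in GRCm38.p6, 250 bases before to 50 bases after the start, are shown because these 3 catalytic subunits rose together. Capitals mark the letters AAGATGGCG of a YY1 motif in Ndufs7 and CCGGAAG of an ETS (GABPA) motif, on the opposite strand, in Ndufs8, and no searched motif was found in the Ndufv1 window.
Ndufs7: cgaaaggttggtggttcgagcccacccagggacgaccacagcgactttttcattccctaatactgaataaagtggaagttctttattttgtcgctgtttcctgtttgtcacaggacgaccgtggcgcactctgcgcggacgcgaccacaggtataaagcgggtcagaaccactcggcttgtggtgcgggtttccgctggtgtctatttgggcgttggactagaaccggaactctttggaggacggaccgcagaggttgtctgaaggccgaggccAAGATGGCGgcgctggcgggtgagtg
Ndufs8: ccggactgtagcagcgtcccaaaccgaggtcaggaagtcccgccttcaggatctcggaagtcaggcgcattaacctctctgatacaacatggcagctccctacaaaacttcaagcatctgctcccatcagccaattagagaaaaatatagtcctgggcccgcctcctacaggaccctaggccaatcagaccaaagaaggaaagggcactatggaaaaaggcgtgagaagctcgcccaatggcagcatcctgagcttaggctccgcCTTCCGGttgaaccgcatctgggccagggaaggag
Ndufv1: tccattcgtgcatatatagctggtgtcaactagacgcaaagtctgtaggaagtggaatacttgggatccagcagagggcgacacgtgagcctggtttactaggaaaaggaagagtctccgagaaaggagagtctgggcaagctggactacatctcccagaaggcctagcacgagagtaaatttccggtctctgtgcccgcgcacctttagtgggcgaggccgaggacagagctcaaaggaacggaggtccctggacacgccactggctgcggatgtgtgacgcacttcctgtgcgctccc
The windows span chr10:80249199-80249498, chr19:3912725-3913024 and chr19:4012706-4013005. The YY1 letters begin at base 275 of the Ndufs7 window and the ETS letters at base 266 of the Ndufs8 window, both just after the annotated start.

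A promoter window was found for 66 of the 84 nuclear members. On either strand the NRF1 letters GCGCANGCG occurred in 20 of the 66 (30.3%), beside 7.03% of the 27025 genes of the promoter table. The ETS letters occurred in 24.2% beside 9.93%, the YY1 letters in 10.6% beside 1.64% and the ERRA letters TCAAGGTCA in 3.03% beside 0.466%. No member window held the ATF4-CEBP letters TGATGCAAT, which 0.222% of all genes had. By complex, the NRF1 letters occurred in 7 of 13 windows of complex V, 8 of 32 of complex I and 1 of 13 of complex IV. Of the 5 windows of members that rose in Gli1Het NSCs, none held the NRF1 letters.

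Complex II, succinate dehydrogenase, which also serves the citric acid cycle, was the only complex whose members all had positive log2 fold changes in both genotypes, although none passed the test. In Gli1Het NSCs the 4 values ranged from 0.05 to 0.30, and the averaged changes from 0.15 to 0.21. The Gli1Het values ranged from 0.14 to 0.24 without the library labelled Gli1Het cuprizone replicate 2. Sdha, the flavoprotein, measured 407, 425 and 412 CPM in the Gli1Null control libraries and 484, 508 and 486 CPM on cuprizone, with no overlap (log2 fold change 0.25 ± 0.12, adjusted p = 0.284). In Gli1Het NSCs it measured 430, 403 and 413 CPM and then 418, 376 and 495 CPM, which overlapped. Sdhb, the iron-sulfur subunit, was apart in Gli1Het NSCs instead, at 202, 197 and 191 CPM against 205, 254 and 242 CPM (log2 fold change 0.25 ± 0.13, adjusted p = 0.162).

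In complex III, ubiquinol-cytochrome c reductase, 1 of 8 nuclear subunits was called. Uqcrq, a small subunit at the ubiquinone-binding part of the complex, measured 77.4, 58.9 and 57.3 CPM in the Gli1Het control libraries and 69.4, 142 and 116 CPM on cuprizone, a log2 fold change of 0.76 ± 0.22 (adjusted p = 0.0236). The groups overlapped, since the Gli1Het cuprizone replicate 1 lay below the highest control library. Without the library labelled Gli1Het cuprizone replicate 2 the change was 0.53 with an adjusted p of 0.0706. In Gli1Null NSCs Uqcrq measured 78.5, 59.2 and 62.8 CPM against 73.4, 73.4 and 77.3 CPM. The core protein Uqcrc1 and the Rieske iron-sulfur protein Uqcrfs1 had log2 fold changes of 0.07 and 0.21 in Gli1Het NSCs (adjusted p = 0.709 and 0.259) and of -0.06 and 0.01 in Gli1Null NSCs.

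Complex IV, cytochrome c oxidase, is the copper-dependent complex. In Gli1Het NSCs, where 34% of all genes were called, Cox6a2 was the only one called of its 16 tested nuclear subunits. In Gli1Null NSCs, where 3.62% of all genes were called, none of the 16 subunits was. Their median log2 fold changes of 0.06 and -0.10 were the lowest of the 5 nuclear classes in each genotype, and without the library labelled Gli1Het cuprizone replicate 2 the Gli1Het medians were 0.01 for complex I, 0.18 for complex II, 0.06 for complex III, -0.09 for complex IV and 0.00 for complex V. In Gli1Null NSCs 3 of the 16 had a positive value, beside 48.3% of all genes. The nuclear subunits of complex V were also mostly negative there (5 of 17 positive). The counts were 18 of 37 for complex I, 4 of 4 for complex II and 4 of 8 for complex III. Cox4i1 and Cox5a, which surround the catalytic core, had log2 fold changes of 0.28 ± 0.18 and -0.06 ± 0.14 in Gli1Het NSCs (adjusted p = 0.255 and 0.755). The copper-bearing subunits are encoded in the mitochondria and are described with that genome.

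Cox6a2, the heart and skeletal muscle isoform of subunit VIa, was absent from the counts of the 3 Gli1Het control libraries and had 2, 24 and 14 counts on cuprizone. In Gli1Null NSCs it had 1, 0 and 1 counts on the control diet and 13, 19 and 9 on cuprizone. Taking 3 counts over the group as the most that 0 allows, the Gli1Het level was at least 14.7-fold higher on cuprizone. The Gli1Null ratio was 20.1 (95% exact counting interval 5.22 to 172, counting error only). Its level on cuprizone stayed low, with 0.634 ± 0.447 CPM (SD over 3 libraries) for Gli1Het and 0.466 ± 0.205 CPM for Gli1Null cells. Its adjusted p by edgeR was 0.00602 in Gli1Het NSCs, 0.0527 in Gli1Null NSCs and 0.00134 for the average. Cox6a2 passed the count filter only through cuprizone libraries, where it is high, so these p-values are not independent of that filter. In the fit without a filter it was still called in Gli1Het NSCs. Cox6a2 lies on chromosome 7 (128205435 to 128206387, minus strand) and overlaps exons of Itgad, a leukocyte integrin gene, on the other strand. Reads in the overlap cannot be told apart. Of the 631 stretches of 50 bases in Cox6a2 transcripts, 21 (3.33%) also occur in those of Itgad. The cell type that gave the Cox6a2 reads was not tested. The summed level of 14 microglia and macrophage markers was 21.8 to 32.3 CPM in Gli1Het control and 41.5 to 93.9 in Gli1Het cuprizone libraries. It was 29.7 to 35.7 CPM in Gli1Null control and 22.3 to 33.2 in Gli1Null cuprizone libraries.

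The common isoform Cox6a1 measured 212, 169 and 147 CPM and then 153, 211 and 168 CPM in Gli1Het NSCs (log2 fold change 0.01, adjusted p = 0.967). Per kilobase of exon its group means were 230 to 268 CPM, while those of Cox6a2 stayed below 1 CPM per kilobase. Per kilobase, Cox4i1 measured 173 to 212 CPM and Cox4i2, the lung isoform, 1.90 to 2.94. Cox6b1 measured 179 to 210 and Cox6b2, the testis isoform, 4.53 to 7.45. Cox7a2 measured 112 to 128 and the muscle isoform Cox7a1 0.371 to 0.890, and Cox7a2l, which takes part in supercomplexes, measured 22.5 to 23.2. Cox8a measured 246 to 267, while Cox8b and Cox8c had 12 and 1 counts in all 12 libraries and were not tested. None of these isoforms other than Cox6a2 passed the test in either genotype. Cox6b2 was apart between the diets in Gli1Null NSCs at 8.61, 7.82 and 6.81 CPM against 5.14, 4.49 and 5.42 CPM (log2 fold change -0.63 ± 0.26, adjusted p = 0.224).

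In complex V, the ATP synthase, 1 of 17 nuclear members was called in Gli1Het NSCs. Atp5f1 (the older symbol of subunit b of the peripheral stalk) measured 241, 217 and 204 CPM in the Gli1Het control libraries and 162, 199 and 169 CPM on cuprizone. In Gli1Null NSCs it measured 245, 227 and 216 CPM and then 186, 184 and 185 CPM. The diets did not overlap in either genotype and the log2 fold changes were -0.32 ± 0.11 in Gli1Het (adjusted p = 0.0456) and -0.31 ± 0.11 in Gli1Null NSCs (adjusted p = 0.164), with an average of -0.32 ± 0.08 (adjusted p = 0.0111). The Gli1Het call of Atp5f1 held in 9 of 20 alternative settings, and with 1 Gli1Het library left out its adjusted p reached 0.101, without Gli1Het cuprizone replicate 3. Its exons overlap those of Wdr77 on the opposite strand. Atp5s, named for coupling factor B, averaged 0.51 ± 0.15 (adjusted p = 0.0194). The catalytic head subunits Atp5a1 and Atp5b had averaged changes of -0.02 and 0.11 (adjusted p = 0.876 and 0.371).

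Atp5b had the highest level per kilobase of the nuclear members, with group means of 287 to 320 CPM per kilobase. The genes Atp5g1, Atp5g2 and Atp5g3 encode the same subunit c of the proton-driven ring. Per kilobase, the highest group mean was 117 CPM for Atp5g3, 45.3 CPM for Atp5g2 and 12.9 CPM for Atp5g1. None was called, with averaged log2 fold changes of 0.08 for Atp5g1, -0.21 for Atp5g2 and -0.17 for Atp5g3.

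The 13 mitochondrially encoded genes did not move as 1 block, although they come from shared transcripts. mt-Nd1, a core membrane subunit of complex I, measured 448, 431 and 437 CPM in the Gli1Het control libraries and 266, 328 and 264 CPM on cuprizone. In Gli1Null NSCs it measured 507, 667 and 510.0 CPM and then 506, 359 and 382 CPM. The diets did not overlap in either genotype. Its log2 fold change was -0.61 ± 0.16 in Gli1Het (adjusted p = 0.0156), -0.43 ± 0.16 in Gli1Null NSCs (adjusted p = 0.176) and -0.52 ± 0.11 on average (adjusted p = 0.00562). Without the library labelled Gli1Het cuprizone replicate 2 the Gli1Het value was -0.73 (adjusted p = 0.00779), and without Gli1Het cuprizone replicate 3 it was -0.58 and not called (adjusted p = 0.0504). Over 20 alternative settings it was called in 17.

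mt-Co1, the copper- and haem-bearing catalytic subunit of complex IV, went the other way. It measured 1206, 1205 and 1150 CPM in the Gli1Het control libraries and 1325, 2118 and 1711 CPM on cuprizone, with no overlap, and 1570, 1773 and 1299 CPM against 2533, 1751 and 1879 CPM in Gli1Null NSCs, where 1 cuprizone library lay just below the highest control. It was called only for the average (0.47 ± 0.14, adjusted p = 0.0210). The adjusted p was 0.0525 in Gli1Het and 0.297 in Gli1Null NSCs. mt-Co2, which carries the other copper centre, had log2 fold changes of 0.15 ± 0.18 and 0.07 ± 0.18 (adjusted p = 0.526 and 0.859), and mt-Co3 of 0.14 ± 0.22 and 0.12 ± 0.22.

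mt-Nd6, the only member on the light strand, measured 67.9, 68.9 and 77.0 CPM and then 77.8, 177 and 110 CPM in Gli1Het NSCs (log2 fold change 0.77 ± 0.27, adjusted p = 0.0441). Leaving out the library labelled Gli1Het cuprizone replicate 2 gave 0.39 (adjusted p = 0.183). mt-Nd5, which overlaps the end of mt-Nd6 on the opposite strand, averaged 0.57 ± 0.18 (adjusted p = 0.0288). Reads of both genes in the overlap (bases 13552 to 13565) cannot be told apart. Since the library kit keeps no strand, RNA of the opposite strand across the rest of mt-Nd6 cannot be told from mt-Nd6 RNA either. The rise of mt-Nd6 is therefore not assigned to the light strand. mt-Cytb, the cytochrome b of complex III, had log2 fold changes of 0.26 in Gli1Het and 0.21 in Gli1Null NSCs (adjusted p = 0.336 and 0.615).

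Expressed as shares of the summed counts of the 13 genes, a measure that does not depend on the scaling between libraries and was chosen after the values were seen, the make-up of the mitochondrial transcripts separated the diets. mt-Nd1 took 8.94%, 8.06% and 8.86% in the Gli1Het control libraries and 5.42%, 4.33% and 4.74% on cuprizone, and 7.80%, 8.26% and 8.87% against 5.30%, 5.74% and 5.43% in Gli1Null NSCs. All 6 control libraries (7.80% to 8.94%) thus lay above all 6 cuprizone libraries (4.33% to 5.74%). mt-Co1 took 22.0% to 24.2% of the counts in the 6 control libraries and 26.5% to 30.7% in the 6 cuprizone libraries.

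The shares of mt-Nd2 (1.49% to 2.07% on control and 1.11% to 1.42% on cuprizone), mt-Nd3 (0.406% to 0.636% and 0.210% to 0.360%) and mt-Nd4 (6.17% to 6.66% and 5.12% to 5.89%) were also lower in every cuprizone library. These 4 lower shares were all of complex I subunits, but the other complex I genes of this genome did not show that separation. mt-Nd5 moved upwards, from 4.19% to 5.40% on control to 5.39% to 7.48% on cuprizone, with 1 library of overlap. For the other 7 genes the ranges overlapped. Among them were mt-Nd4l (means of 0.0331% on control and 0.0234% on cuprizone) and mt-Nd6 (1.40% and 1.71%), both of complex I. The share of mt-Cytb stayed between 16.8% and 18.4% in all 12 libraries. These shares are given as a description, with no test, and since they sum to a fixed total a higher share of one gene lowers the others. The log2 fold changes of the genes themselves were -0.09 in Gli1Het and -0.24 in Gli1Null NSCs for mt-Nd2, -0.40 and -0.45 for mt-Nd3, and -0.06 and 0.01 for mt-Nd4, and none of the 3 was called.

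**Figure D4:**
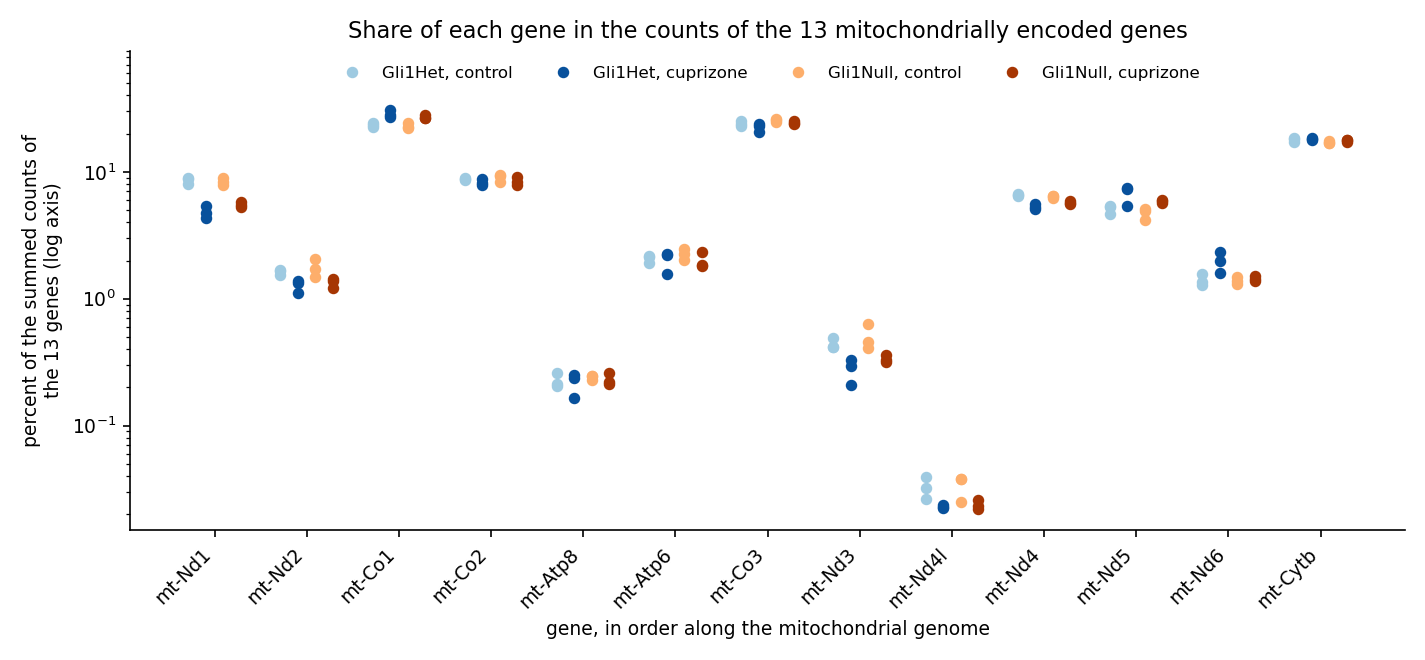
Share of each mitochondrially encoded gene in the summed counts of the 13 (vertical log axis, percent), in order along the mitochondrial genome (horizontal axis), for the 3 libraries of each group. The cuprizone libraries of both genotypes (dark points) lie below the control libraries (light points) for mt-Nd1, mt-Nd2, mt-Nd3 and mt-Nd4 and above them for mt-Co1, while mt-Cytb stays between 16.8% and 18.4%.

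Across the 13 genes the log2 fold changes of the 2 genotypes, which share no library, had a Pearson r of 0.93 and a Spearman rho of 0.91, and 11 of 13 had the same sign. Across the 81 nuclear members without Cox6a2 the values were 0.72 and 0.70, with 54 of the 81 having the same sign. Both are correlations across genes, which are not independent replicates and share library depth, sequence and annotation. The levels of some mitochondrial genes are also uncertain, because nuclear copies of the mitochondrial genome exist. Of the 50-base words of mt-Nd3, mt-Nd4l, mt-Co2, mt-Co3 and mt-Atp6, 98.0% to 100% also occur in transcripts of other genes in GENCODE M21, as do 62.2% of those of mt-Nd4 and 51.1% of those of mt-Co1. For mt-Nd1, mt-Nd6, mt-Cytb and mt-Atp8 the share was 0%.

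Between the genotypes no member was called. On cuprizone, 0 of 95 members differed between Gli1Het and Gli1Null NSCs, against 0.0397% of all genes (7 genes). There were 6 members with an unadjusted p under 0.05 in edgeR, beside 4388 of all 17623 genes tested. DESeq2 called 1 member, mt-Nd1, beside 1703 genes in all. The median difference (Gli1Het minus Gli1Null) was 0.17 over the nuclear members and -0.36 over the mitochondrially encoded genes, 12 of which were lower in Gli1Het NSCs. Without the library labelled Gli1Het cuprizone replicate 2 the medians were -0.00 and -0.61, and all 13 mitochondrially encoded genes were lower. Of the 13, 10 had an unadjusted p under 0.05 and 0 were called, where 0.206% of all genes were called. The number of all genes with such an unadjusted p is not given for this fit. The 13 genes come from shared transcripts, so their differences are not independent of each other. On the control diet 0 of 95 members were called, where 0% of all genes were. Gli1 itself was not called by edgeR there, although it measured 8.65 to 18.1 CPM in Gli1Het and 0.294 to 0.389 CPM in Gli1Null libraries. The lack of calls on the control diet therefore does not show that the members were equal. Of the members 4 had an unadjusted p under 0.05, beside 253 of all genes tested. DESeq2 called 0 members there, beside 1 gene in all. The 4 were mt-Nd1, mt-Co2, mt-Co3 and mt-Atp6. All 13 mitochondrially encoded genes were lower in Gli1Het NSCs there (median -0.44), beside a median of -0.04 over the nuclear members. The interaction of genotype and diet called 0 of 95, again beside 0% of all genes. An unadjusted p under 0.05 was found for 0 members and for 1591 of all genes tested. DESeq2 called 0 members and 62 genes in all for the interaction. The median interaction was 0.16 over the members and 0.00 over all genes, and 79 of the 95 values were positive. Without the same library the median over the members was 0.02 and 52 of the 95 were positive. The calls in Gli1Het and their absence in Gli1Null NSCs are therefore not shown to differ.

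Genes that build or regulate the chain were grouped in lists by function, whose counts in Gli1Het NSCs stand beside 18.8% of all genes rising and 15.3% falling. Of 14 tested complex I assembly factors 5 rose and 0 fell in Gli1Het NSCs (median 0.23), with Ndufaf1 at 0.82 ± 0.17 (adjusted p = 0.00487), Ndufaf6 at 0.73 ± 0.19 (adjusted p = 0.0135) and Nubpl, which delivers iron-sulfur clusters, at 0.68 ± 0.21 (adjusted p = 0.0270). Of the 13 assembly factors of complexes II, III and V 3 rose, Sdhaf1, Sdhaf2 and Uqcc2. In Gli1Null NSCs 0 members of these lists were called. Of the 6 genes listed beside the main symbols (Cyc1, Ndufab1, Cycs, Higd1a, Higd2a and the member Ndufa4l2) Higd1a and Higd2a, small proteins of the supercomplexes, rose in Gli1Het NSCs (0.64 and 0.52, adjusted p = 0.0326 and 0.0233). Without the library labelled Gli1Het cuprizone replicate 2, where 14.7% of all genes rose, 3 of the 14 complex I assembly factors rose, and none of the 13 other assembly factors or of these 6 genes was called.

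The assembly factors of complex IV went in both directions. Of 21 tested, 5 rose and 3 fell in Gli1Het NSCs, close to the 34% of all genes called, and 1 rose and 1 fell in Gli1Null NSCs. In Gli1Het NSCs 3 rose and 3 fell without the library labelled Gli1Het cuprizone replicate 2. Surf1 (0.68 ± 0.13, adjusted p = 0.00420) and Cox18, which inserts mt-Co2 into the membrane (adjusted p = 0.00757), rose, while Cox19 (-0.61 ± 0.12, adjusted p = 0.00469) fell. In Gli1Null NSCs Cox10, which makes haem for the complex, rose by 0.57 ± 0.14 (adjusted p = 0.0434), and Cox20 fell by 0.63 on the log2 scale (adjusted p = 0.0379). Among 11 genes of copper delivery 2 rose and 1 fell in Gli1Het NSCs, and 1 rose and 1 fell without that library. Ccs, the copper chaperone of superoxide dismutase, measured 26.8 ± 2.38 CPM on the control diet and 55.1 ± 11.2 CPM on cuprizone in Gli1Het NSCs (SD, n = 3 libraries). Its log2 fold change by edgeR was 1.04 ± 0.15 (adjusted p = 0.00124) and 0.25 ± 0.15 in Gli1Null NSCs (adjusted p = 0.412). Coa6, a copper-binding assembly factor, rose by 0.58 (adjusted p = 0.0370).

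Of the nuclear regulators of respiratory genes, 5 of 14 rose and 2 fell in Gli1Het NSCs, and 6 rose and 1 fell without the library labelled Gli1Het cuprizone replicate 2. Ppargc1a, the coactivator PGC-1alpha, rose by 0.84 (adjusted p = 0.0168) and Myc by 2.69 (adjusted p = 0.00480), while the transcription factor Nrf1 and the GABP subunit Gabpb1 had log2 fold changes of -0.43 and -0.71 (adjusted p = 0.0284 and 0.00321). Tfeb, a regulator of lysosomal genes, rose in both genotypes (0.94 and 0.73, adjusted p = 0.00306 and 0.0370). Of 24 genes of mitochondrial DNA expression 3 rose and 1 fell in Gli1Het NSCs, a smaller share than the 34% of all genes, and 0 were called in Gli1Null NSCs. Without that library 1 rose and 1 fell in Gli1Het NSCs, and 0 rose and 1 fell in Gli1Null NSCs. Top1mt, the mitochondrial topoisomerase, had a log2 fold change of 1.04 ± 0.27 (adjusted p = 0.0143) and Tfb1m, a methyltransferase of mitochondrial rRNA, of -0.66 ± 0.19 (adjusted p = 0.0199). Among 13 genes of mitochondrial uptake and mass 1, Tomm40, was called (0.41, adjusted p = 0.0207), with a list median of 0.08.

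Genes of the mitochondrial stress response were also listed. Of the 14 tested, 12 rose in Gli1Het (median 1.10) and 6 in Gli1Null NSCs (median 0.62), with 0 falling. This stands beside 18.8% of all genes rising in Gli1Het NSCs and 3.62% called in either direction in Gli1Null NSCs. Leaving out the library labelled Gli1Het cuprizone replicate 2, 11 of the 14 rose in Gli1Het NSCs (median 0.91). Atf5, a transcription factor of the mitochondrial unfolded protein response, rose by 2.49 ± 0.18 in Gli1Het (adjusted p = 2.5e-05) and by 2.37 ± 0.18 in Gli1Null NSCs (adjusted p = 4.68e-05). Trib3 rose by 6.87 and 6.44, and Hspa9, the chaperone of the mitochondrial matrix, by 1.23 and 1.11.

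Markers of other cells moved with the diet. Of the 14 neuroblast markers 0 rose and 11 fell in Gli1Het NSCs, beside 15.3% of all genes falling. Their summed level was 776 to 4606 CPM on cuprizone, below the 6370 to 8840 CPM of the control libraries. In Gli1Null NSCs none was called, with sums of 7207 to 7469 CPM on the control diet and 4704 to 5049 CPM on cuprizone. Without the library labelled Gli1Het cuprizone replicate 2, 14 of the 14 fell in Gli1Het NSCs, beside 12.3% of all genes. In the same fit 3 of the 14 fell in Gli1Null NSCs, beside 2.78% of all genes. NSC markers summed to 7615 to 10689 CPM in Gli1Het and 7428 to 9034 CPM in Gli1Null cuprizone libraries, and ependymal markers to 217 to 707 CPM in Gli1Het cuprizone libraries against 57.2 to 110 CPM on the control diet. No marker list was at 0 in any group. The part of these shifts in the results for the respiratory chain was not tested.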

How the data were processed

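RNA-seq was performed on 12 libraries of sorted NSCs. Per the labels and the methods of the study, the authors aligned reads with TopHat2 2.1.1 to mm10 after FastQC 0.11.5, counted them per gene with HTSeq 0.11.1 and normalised them with DESeq2 1.12. The deposited values were whole-number counts and normalised counts, a signal that the authors obtained by dividing counts by a size factor. Multiplied back, 100% of the normalised values were whole within 0.01 and equal to the counts. In 33998 lines the first column of the count sheet named another gene than the count cells, and genes were identified by the ID inside the count cells. The count sheet lists reads without a unique alignment in a row of their own, with 10623432 to 25242316 per library. The strand setting, whether such reads were also counted in genes, and the annotation release: not given in the sources used here.

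Counts were filtered (minimum count 10), scaled by TMM and tested with edgeR 4.0.16 (quasi-likelihood, all 4 groups in 1 fit, Benjamini-Hochberg adjusted p under 0.05 over all 17623 genes) in R 4.3.3. SE was the log2 fold change divided by the square root of F. The scripts were tested on simulated data. CPM used TMM-scaled library sizes, and library medians used log2(CPM + 0.1). Positions, exon lengths and overlaps came from GENCODE M21.

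Alternatives were DESeq2 1.42.0 and its size factors, no filter, the compared groups only, a replicate block, limma 3.58.1 with quality weights, a term for label numbers under 10, leaving out the 4 libraries with such numbers, and leaving out each library.

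The members and gene lists were chosen with earlier results of these data known. Named genes were up to 3 called members per complex and direction with the smallest adjusted p, the defining subunits, the isoform pairs, the mitochondrially encoded genes and up to 3 genes per list. Ndufb5, Ndufv2, Nrf1, Ppargc1a and others outside this rule were named after their values were seen. The comparison averaged over genotypes, the mitochondrial shares and the list counts without 1 library were also chosen after the data were seen. One member is not reported by name here.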

Additional observations from a re-analysis of the deposited data

How the results depend on the processing

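Over the settings tried, the number of members called on cuprizone in Gli1Het NSCs (10) became 16 with DESeq2, 39 with limma and quality weights, 5 without the 4 libraries with a label number under 10 and 0 when the 2 groups were fitted alone. Over all genes, DESeq2 called 6890 for the diets in Gli1Het NSCs, 1322 for the diets in Gli1Null NSCs and 1703 between genotypes on cuprizone. Leaving out 1 library at a time gave 3 to 21 members in Gli1Het NSCs. The counts were 3 without Gli1Het control replicate 2 and 3 without Gli1Het cuprizone replicate 3, 5 without Gli1Het control replicate 3, 6 without Gli1Null cuprizone replicate 2 or 3, and 21 without Gli1Het cuprizone replicate 1. In Gli1Null NSCs the count of 0 became 5 with the 2 groups alone, 11 with limma, 1 with the label term, 6 without the 4 libraries and 0 to 3 with 1 library left out. Between genotypes on cuprizone the count of 0 became 1 with DESeq2, 16 with limma and 0 to 4 with 1 library left out, on the control diet it stayed 0 in every setting, and for the interaction it became 1 with limma and 0 to 1 with 1 library left out. The averaged diet count of 14 became 40 with limma and 7 to 22 with 1 library left out. It was 14 without the 4 libraries, with 1 member higher and 13 lower. Uqcrq in Gli1Het NSCs changed direction without these 4 libraries, to -0.16. The cause of these changes was not tested. For limma and most other settings the totals over all genes are not given here. These member counts are therefore not read as a result about the respiratory chain.

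With the replicate number as a block, 7 members were called in Gli1Het NSCs, 12 for the average and 0 in the other comparisons. The correlation of same-numbered libraries ranged from -0.118 to 0.120, so the numbers were not taken as a pairing.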
